A study of Mus musculus and Meriones unguiculatus with 4 samples.

Results

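The genes described here encode initiator and executioner caspases (Casp8, Casp9, Casp6), the adaptors that activate initiators (Fadd, Apaf1) and inhibitors of the same steps (Cflar, Birc2, Xiap). They were chosen by name, and all 8 were found once in each species' table, among 13321 genes that could be matched between the tables by symbol. RNA had been sequenced from the enamel knot region of lower-jaw tooth germs of 2 wild-type gerbil (Meriones unguiculatus) samples at embryonic day 15 and 2 wild-type mouse (Mus musculus) samples at embryonic day 13. The region was cut by laser from fixed frozen sections and labelled as epithelial cells. The sources used here name no strain, sex, treatment or number of animals per sample, so the spread between the 2 libraries of a species may be technical. The libraries are called E21 and E23 (gerbil) and PEK and SEK (mouse) after their columns. The labels do not explain these names, and E21 and E23 differ from the labelled embryonic day. Should they stand for separate stages or parts of the tooth germ, E21 and E23, or PEK and SEK, would not be replicates.

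The enamel knot is a transient signalling centre of the dental epithelium, and its cells are known to stop dividing and to be removed by apoptosis. In the death receptor route, a bound receptor recruits the adaptor FADD, which gathers caspase-8 into a complex where it becomes active. The protein encoded by Cflar, called FLIP, resembles caspase-8 and competes for places in that complex. In the mitochondrial route, cytochrome c released into the cytosol makes APAF1 assemble into a wheel that activates caspase-9. Both initiators then cleave executioner caspases, and proteins of the IAP family such as XIAP bind caspases or tag their partners with ubiquitin.

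Levels below are the deposited TPM (gerbil) or FPKM (mouse), rescaled so that the matched genes of each library add up to 1000000. The authors normalized each table on its own, so levels are set across them only as a description, with no significance test. With 2 libraries on each side, the smallest two-sided p of an exact permutation test is 0.333. The gerbil to mouse ratio moved with transcript length over all genes, with medians on the log2 scale of -1.80 for the 1015 genes with the shortest transcripts and 1.43 for those with the longest. Length here is that of all annotated exons of the mouse gene merged, used for both species, and can exceed that of any single transcript. Log2 differences therefore carry a correction for length unless said otherwise, while printed levels do not. A gene counts as called higher in one species if, on the corrected log2(level + 1) scale, the lower of that species' values exceeds the higher value of the other species by 2-fold or more. Of 10158 genes with a mean level of 1 or more, 1359 (13.4%) were called higher in gerbil and 1487 (14.6%) higher in mouse. With neither centring nor correction these became 3019 (29.7%) and 1209 (11.9%), or 41.6% in either direction. The median difference over all genes is 0.62 under that setting and -0.01 on the corrected scale. Depth was not analysed here, and no counting interval is given. In bulk RNA, fewer cells of a type and less RNA per cell cannot be told apart.

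Markers of the region and of other cell types also differed between the libraries. Summed levels of 10 matched dental epithelium markers were 9869 and 8688 in E21 and E23 of gerbil, against 5707 and 8480 in PEK and SEK of mouse. Of these sums, Krt5 alone gave 6043 and 4586 in gerbil, against 1624 and 2378 in mouse. The gerbil row named Krt5 is described as keratin, type II cytoskeletal 6A. Krt14 went the other way, at 1030 and 1373 in gerbil, against 1739 and 2843 in mouse. Summed levels of 11 enamel knot markers were 1854 and 1810 in gerbil, against 4845 and 2828 in mouse. Of the knot sums, Cdkn1a alone gave 60.0 and 37.1 in gerbil, against 1565 and 1019 in mouse. Shh went the other way, at 963 and 1186 in gerbil, against 946 and 609 in mouse. The 13 dental mesenchyme markers summed to 3892 and 4061 in gerbil, against 1026 and 1042 in mouse, below the epithelial sum in each library. In gerbil, Krt5 makes up most of that epithelial sum, and without it the epithelial and mesenchyme sums are close. Of the mesenchyme sums, Tnc alone gave 1881 and 500 in gerbil, against 5.05 and 2.72 in mouse. Msx1 went the other way, at 37.6 and 32.3 in gerbil, against 270 and 283 in mouse. Skeletal muscle markers (8 matched) summed to 6.03 and 20.2 in gerbil, with Myod1 listed at 0 in both and Mylpf in E21, against 123 and 520.3 in mouse. Stress and handling genes (7 matched) summed to 50.1 and 61.0 in gerbil, against 784 and 671 in mouse, while endothelial markers (7 matched) summed to 35.0 and 184 in gerbil, with Emcn and Esam listed at 0 in E21, against 113 and 215 in mouse. Of the endothelial sums, Egfl7 alone gave 33.7 and 53.4 in gerbil, against 106 and 189 in mouse. Every other matched endothelial marker was lower in E21, and higher in E23, than in both mouse libraries. Kdr, for example, was at 0.30 and 32.3 in gerbil, against 0.41 and 1.72 in mouse. Blood and immune markers (6 matched) summed to 7.77 and 40.5 in gerbil, against 9.30 and 28.6 in mouse. The part of these sums in the differences of the 8 genes was not tested.

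On the corrected scale, 2 of the 8 genes were called higher in gerbil (Fadd and Birc2), 1 was called higher in mouse (Cflar) and 5 were not called. All genes together were called in either direction in 28% of cases, so 3 of 8 is near the background. The median difference of the 8 genes was 0.32, beside -0.01 over all genes. The libraries of the species did not overlap for 7 of the 8 genes, Casp8 being the exception, and such separation held for 74.2% of all genes on the corrected scale and for 78.8% on levels. With no correction for length, 5 of the 8 were called (Fadd, Birc2 and Xiap higher in gerbil, Cflar and Casp6 higher in mouse), beside 37.9% of all genes. Deposited values of the 8 genes ran from 2.24 to 19.8 TPM in gerbil and from 2.21 to 124 FPKM in mouse.

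**Figure D1:**
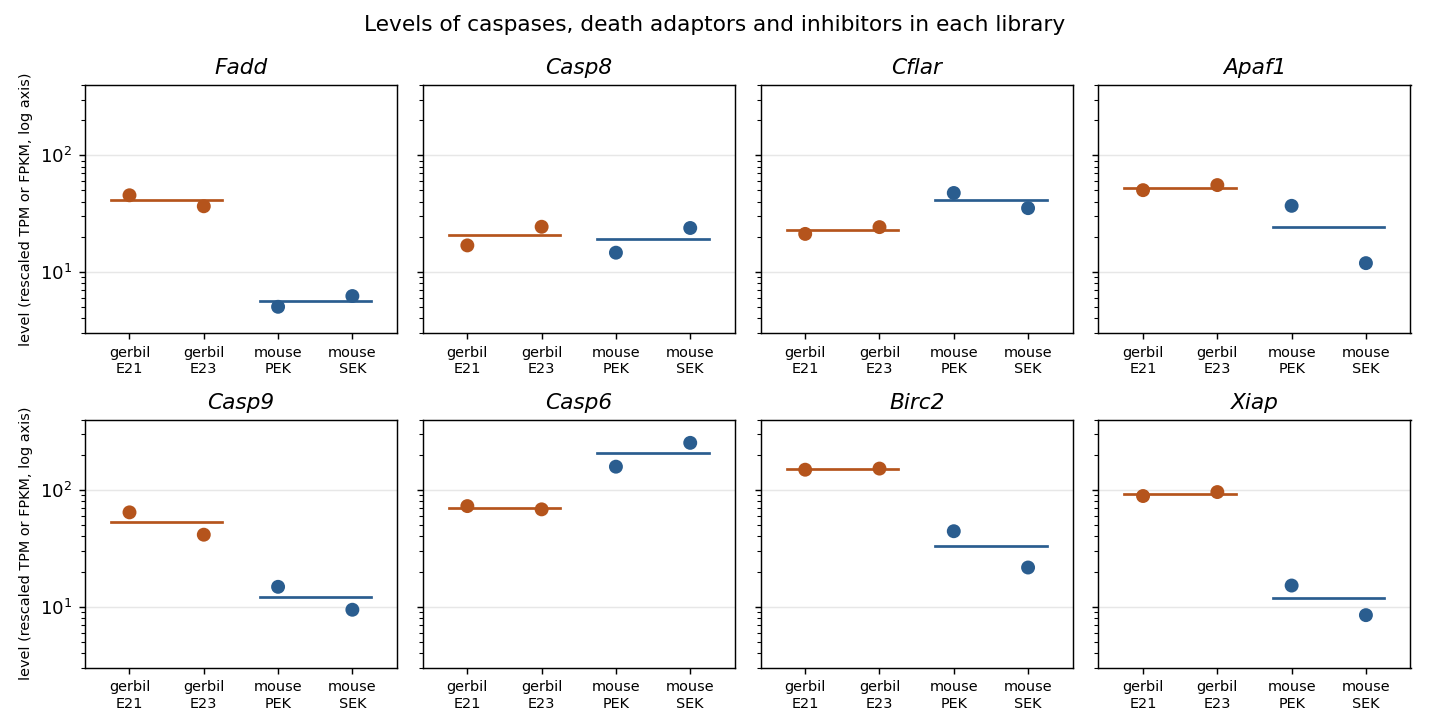
Level of each gene in the gerbil libraries E21 and E23 (left, orange) and the mouse libraries PEK and SEK (right, blue), on a log axis in rescaled TPM or FPKM without the length correction. Points are libraries and lines are species means; Fadd, Apaf1, Casp9, Birc2 and Xiap lie higher in both gerbil libraries, Cflar and Casp6 lie higher in both mouse libraries, and Casp8 overlaps.

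Fadd and Cflar, partners at the death receptor, stood apart in opposite directions. Fadd was at 45.4 and 36.5 in E21 and E23 of gerbil, against 5.03 and 6.22 in PEK and SEK of mouse. The groups did not overlap, and the lowest gerbil library was several times the highest mouse library. Fadd averaged 41.0 ± 6.25 in gerbil, against 5.63 ± 0.84 in mouse (SD over 2 libraries each). Its corrected difference on the log2 scale was 1.67 ± 0.29 (SE). Without the length correction the difference was 2.03, and Fadd was called higher in gerbil under every alternative that was run. Cflar was at 21.2 and 24.2 in E21 and E23 of gerbil, against 47.5 and 35.2 in PEK and SEK of mouse. Its groups did not overlap either, with both mouse libraries above both gerbil libraries. The averages were 22.7 ± 2.15 in gerbil, against 41.4 ± 8.68 in mouse, and the corrected difference was -2.78 ± 0.23. Cflar has a long merged exon length (7870 bases), and the correction contributed -1.32 of this difference. It was -1.46 and still called without the correction, and -0.82 and no longer called with neither centring nor correction.

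Casp8 itself, the initiator that FADD recruits, did not separate the species. It was at 16.9 and 24.4 in E21 and E23 of gerbil, against 14.6 and 23.8 in PEK and SEK of mouse. The 4 values interleave, with 1 lower and 1 higher library in each species. The corrected difference was -0.35 ± 0.45, and it was 0.11 with neither centring nor correction.

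The catalytic site shows how Cflar differs from the caspases it resembles. Caspases share a short active-site sequence around the catalytic cysteine, glutamine, alanine, cysteine, any residue and glycine. In the longest coding sequence of each of 21975 mouse genes (GENCODE M21, GRCm38), 82 genes (0.373%) encoded that pattern anywhere, and 10 of these are named as caspases. The coding strand of the mouse genes is printed below from 5′ to 3′. Capitals mark the codons of this pattern in the caspases and, in Cflar, the codons read on without a gap from the glutamine that aligns with that of Casp8.
Casp8: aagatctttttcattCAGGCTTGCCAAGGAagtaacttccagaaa
Casp9: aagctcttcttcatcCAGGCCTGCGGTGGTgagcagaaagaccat
Casp6: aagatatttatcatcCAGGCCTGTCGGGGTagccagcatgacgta
Cflar: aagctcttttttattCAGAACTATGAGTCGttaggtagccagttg
The third codon in capitals encodes cysteine in Casp8, Casp9 and Casp6 and does not in Cflar. The Casp8 stretch lies at chr1:58844598-58844642 on the plus strand, within exon 9 of 10, and the Cflar stretch at chr1:58752602-58752646 on the plus strand, within exon 10 of 11. The stretches of Casp9 (chr4:141807232-141811552, exons 6 and 7, plus strand) and Casp6 (chr3:129910681-129912144, exons 5 and 6, plus strand) each span an intron. Over 437 aligned residues, the mouse Casp8 and Cflar coding sequences encode 138 identical ones (31.6%).

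Cflar and Casp8 are also neighbours on the chromosome in both species. In mouse they lie on the same strand of chromosome 1, 36489 bases apart (Cflar, ENSMUSG00000026031, 58711508 to 58758884; Casp8, ENSMUSG00000026029, 58795374 to 58847503; GRCm38). In gerbil they lie on the same strand of one scaffold, 28513 bases apart. On this shared stretch, Cflar was called higher in mouse and Casp8 was not called.

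Ratios within a library remove its overall scale, although not the length trend. The Cflar to Fadd ratio of levels was 0.467 and 0.663 in E21 and E23 of gerbil, against 9.44 and 5.66 in PEK and SEK of mouse. Thus Fadd was the more abundant of the pair per unit length in both gerbil libraries, and Cflar in both mouse libraries, with 8.54-fold between the nearest libraries of the species. The Cflar to Casp8 ratio was 1.25 and 0.993 in gerbil, against 3.25 and 1.48 in mouse. That ratio was also higher in both mouse libraries, but by only 1.18-fold between the nearest ones, against 4.37-fold on the corrected scale. The Fadd to Casp8 ratio was 2.69 and 1.498 in gerbil, against 0.344 and 0.261 in mouse. The nearest libraries were 4.36-fold apart, against 2.84-fold on the corrected scale. These ratios share genes with each other and are not separate observations.

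**Figure D2:**
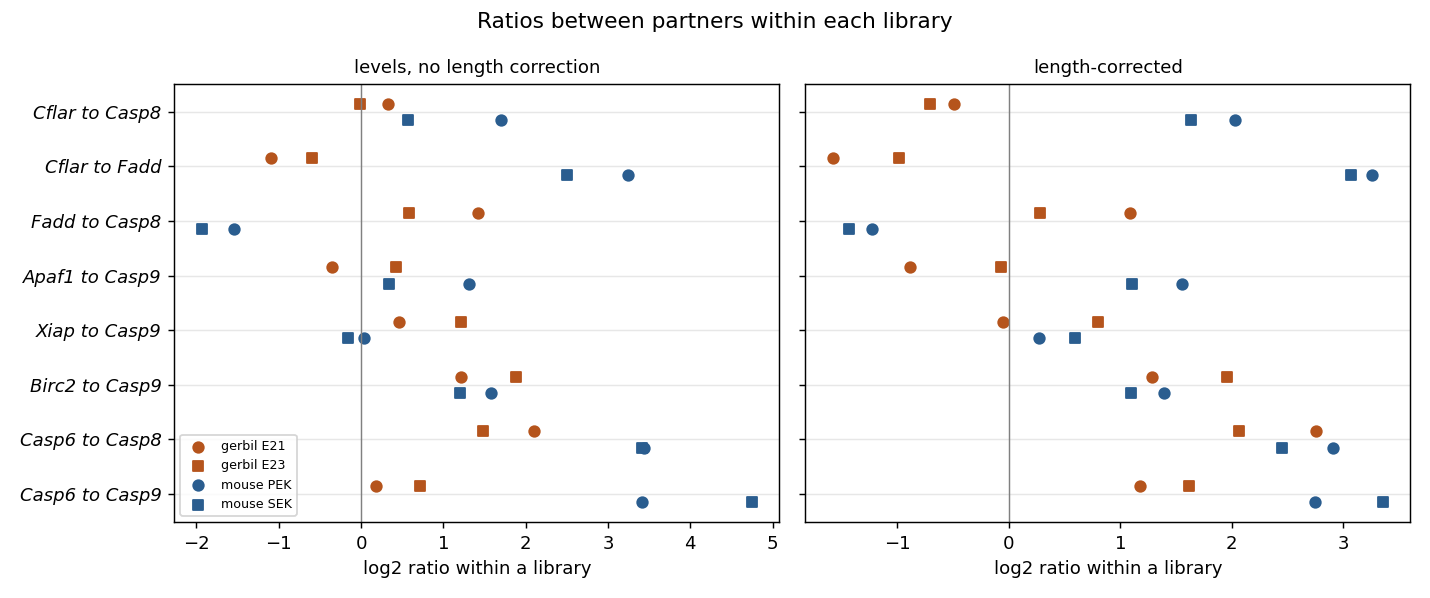
Log2 ratio between pairs of genes within each library, on levels (left) and on the length-corrected scale (right), with gerbil E21 and E23 in orange above mouse PEK and SEK in blue. The Cflar to Fadd and Fadd to Casp8 ratios separate the species on both scales, whereas Xiap to Casp9 separates them on levels alone and Birc2 to Casp9 on neither.

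In the mitochondrial route, Casp9 was higher in both gerbil libraries but was not called, and Apaf1 had no direction that held across scalings. Casp9 was at 64.3 and 41.4 in E21 and E23 of gerbil, against 14.8 and 9.42 in PEK and SEK of mouse. The groups did not overlap on either scale, but on the corrected scale the nearest libraries were less than 2-fold apart. The averages were 52.9 ± 16.2 in gerbil, against 12.1 ± 3.81 in mouse, with a corrected difference of 1.04 ± 0.35. Casp9 was called higher in gerbil without gerbil E23 (1.45, a setting with 16.6% of all genes called so) and with neither centring nor correction (2.04). The mouse Casp9 locus (ENSMUSG00000028914, chromosome 4, 141793608 to 141815976) overlaps the Cela2a locus by 1015 bases on the opposite strand. Whether strand was used in counting is not given, and Cela2a was at 1.34 and 0.34 FPKM in PEK and SEK.

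Apaf1 was at 50.2 and 55.5 in E21 and E23 of gerbil, against 36.9 and 11.9 in PEK and SEK of mouse. The mouse libraries lay further apart from each other than the gerbil ones, and both were below them. On the corrected scale the order was turned round, at -0.76 ± 0.41. Apaf1 has the longest merged exon length of the 8 (8273 bases), and the correction contributed -1.41 of this difference. The difference was 0.65 before correcting for length and 1.28 when the libraries were not centred either, and it was called higher in mouse without mouse SEK (-1.10), where 19.6% of all genes were.

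The gerbil Apaf1 value also depends on which locus is read. The gerbil table holds an unnamed gene described as Apaf1-like, at 4.50 and 3.93 TPM in E21 and E23, beside 6.66 and 6.53 TPM for the row named Apaf1. It lies 200 bases from Ikbip on the opposite strand, as Apaf1 does in mouse (169 bases), while the row named Apaf1 lies on another scaffold. With the Apaf1-like locus in place of the named row the corrected difference was -1.40, and with both summed it was -0.06. These 2 readings were added after the data had been seen, and how the loci relate was not tested. On the corrected scale the Apaf1 to Casp9 log2 ratio was -0.88 and -0.07 in gerbil, against 1.56 and 1.10 in mouse, but on levels the species overlapped (0.781 and 1.34 in gerbil, 2.49 and 1.26 in mouse).

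Casp6, the executioner caspase that cleaves nuclear lamins, was the most abundant of the 8 genes in mouse. It was at 72.8 and 68.3 in E21 and E23 of gerbil, against 158 and 253 in PEK and SEK of mouse. Both mouse libraries lay more than 2-fold above both gerbil libraries on this scale. The averages were 70.5 ± 3.19 in gerbil, against 206 ± 67.2 in mouse. Casp6 has the shortest merged exon length of the 8 (1456 bases), and the corrected difference of -0.61 ± 0.16 was not called. Before that correction it was -2.13 and called, as were 19.4% of all genes in that direction, and it was also called when the libraries were not centred either (-1.49). Within a library, the Casp6 to Casp9 ratio was 1.13 and 1.65 in gerbil, against 10.7 and 26.9 in mouse, and it stayed separated on the corrected scale by 2.18-fold at the nearest.

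Both IAP genes of the 8 were higher in the gerbil libraries. Birc2, which encodes the ubiquitin ligase cIAP1, was at 149 and 152 in E21 and E23 of gerbil, against 44.3 and 21.7 in PEK and SEK of mouse. The gerbil libraries nearly coincide, whereas PEK was about 2-fold above SEK on levels, and the species did not overlap. The averages were 151 ± 2.36 in gerbil, against 33.0 ± 16.0 in mouse, with a corrected difference of 1.41 ± 0.32. This call was close to the threshold, with 1.05 log2 units between the nearest libraries, and it ended with 20 length bins (1.38), with GC content also removed (1.18) and with median ratio scaling (1.34). All genes were called higher in gerbil in 13.3% of cases with 20 bins or median ratio scaling and in 11.6% with GC removed. Xiap, whose product inhibits caspase-9 and the executioners, was at 88.7 and 96.0 in E21 and E23 of gerbil, against 15.2 and 8.47 in PEK and SEK of mouse. On levels its ratio between species means, 7.81, was the largest of the 8. Its merged exon length is long (7750 bases), and after the length correction the difference was 0.98 ± 0.13, with 0.84 between the nearest libraries, and not called. With gerbil E21 left out it was called higher in gerbil (1.09), where 17.4% of all genes were, and with no filter on low values (1.19), where 12.1% were. It was also called before correcting for length (2.28, with 18.4% of all genes) and when the libraries were not centred either (2.91). The Xiap to Casp9 ratio was 1.38 and 2.32 in gerbil, against 1.03 and 0.899 in mouse, and on the corrected scale the species overlapped.

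Birc2 has its paralogue Birc3 beside it in both species, on the same strand, 12579 bases away in gerbil and 11627 in mouse. Birc3 was at 58.8 and 41.8 in E21 and E23 of gerbil, against 17.98 and 4.88 in PEK and SEK of mouse, with a corrected difference of 1.10 ± 0.65, not called. No source used here says how reads matching both paralogues were counted. The mouse positions are chromosome 9, 7818226 to 7837064, for Birc2 (ENSMUSG00000057367) and chromosome X, 42059679 to 42109664, for Xiap (ENSMUSG00000025860). Fadd (ENSMUSG00000031077) lies at 144577318 to 144582463 of chromosome 7, Apaf1 (ENSMUSG00000019979) at 90989310 to 91082770 of chromosome 10 and Casp6 (ENSMUSG00000027997) at 129901425 to 129914103 of chromosome 3, all in GRCm38. Fadd also has the same neighbour, Ano1, on the same strand in gerbil (7943 bases) and mouse (6084 bases), as Casp6 has Pla2g12a (4326 bases in gerbil and 5599 in mouse).

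**Figure D3:**
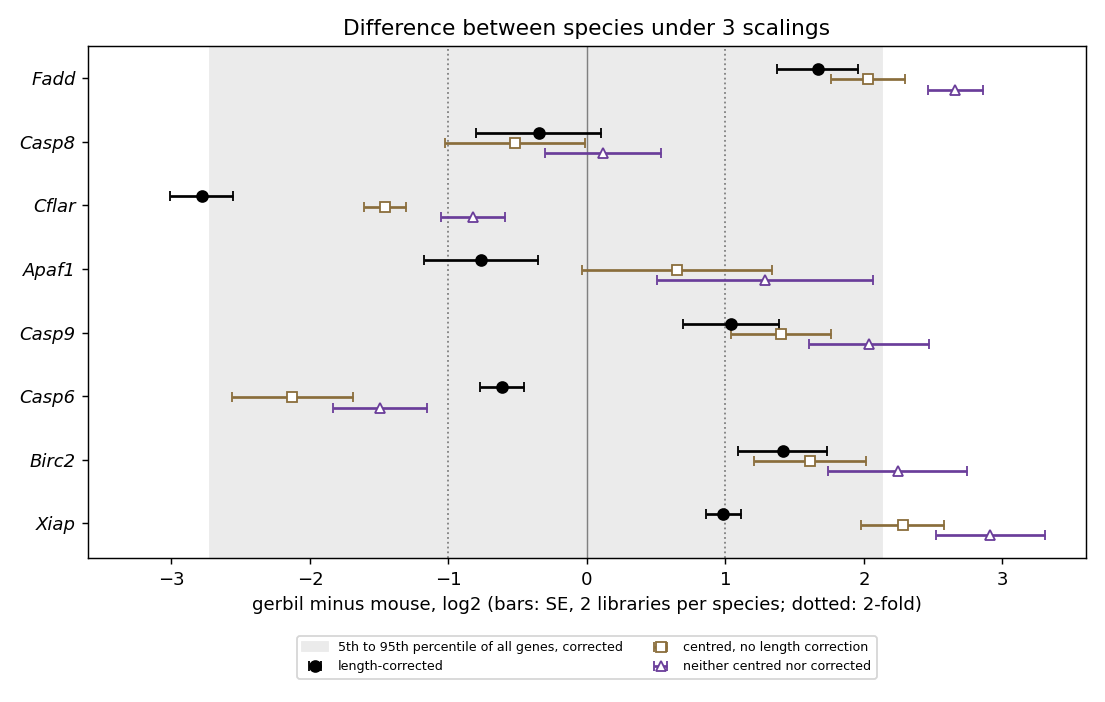
Gerbil minus mouse log2 difference of each gene under 3 scalings, with standard errors from 2 libraries per species, dotted lines at 2-fold and a grey band from the 5 to the 95 percentile of all genes on the corrected scale. Fadd and Birc2 stay to the right and Cflar to the left under all 3, Apaf1 and Casp8 change side, and Casp6 and Xiap move towards 0 with the correction.

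The order of the 8 genes by level differed between the species. In gerbil the order was Birc2, Xiap, Casp6, Apaf1, Casp9, Fadd, Cflar and Casp8, from high to low. In mouse it was Casp6, Cflar, Birc2, Apaf1, Casp8, Casp9, Xiap and Fadd. Among neighbours in the gerbil order, the ranges of the 2 libraries overlapped for Apaf1 and Casp9, Casp9 and Fadd, and Cflar and Casp8. In mouse they overlapped for every neighbouring pair from Cflar down to Xiap, and Casp6 at the top and Fadd at the bottom stood clear. Among the 10158 genes, Birc2 stood at the 85.0 and 86.2 percentile of levels in E21 and E23 of gerbil, against the 61.8 and 50.7 percentile in PEK and SEK of mouse. Casp6 stood at the 63.9 and 63.5 percentile in gerbil, against the 88.4 and 92.1 percentile in mouse. The order and percentiles are on levels without the length correction, after which Birc2 was called and Casp6 and Xiap were not.

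On the corrected scale, none of the 8 genes differed by 2-fold or more between the libraries of a species. Of all genes, 9.71% did between gerbil E23 and E21 and 15.9% between mouse SEK and PEK, so most genes did not. Among them, the largest difference between the gerbil libraries was that of Casp9, lower in E23 than in E21 (-0.60), followed by Casp8, higher in E23 by 0.53. Between the mouse libraries, Apaf1 was lower in SEK than in PEK (-0.80), as was Birc2 (-0.64), and Casp8 was higher in SEK by 0.73. Without the length correction the Apaf1 difference was -1.36 and passed 2-fold. Each of these sets 1 library against 1, with no replicate check.

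**Figure D4:**
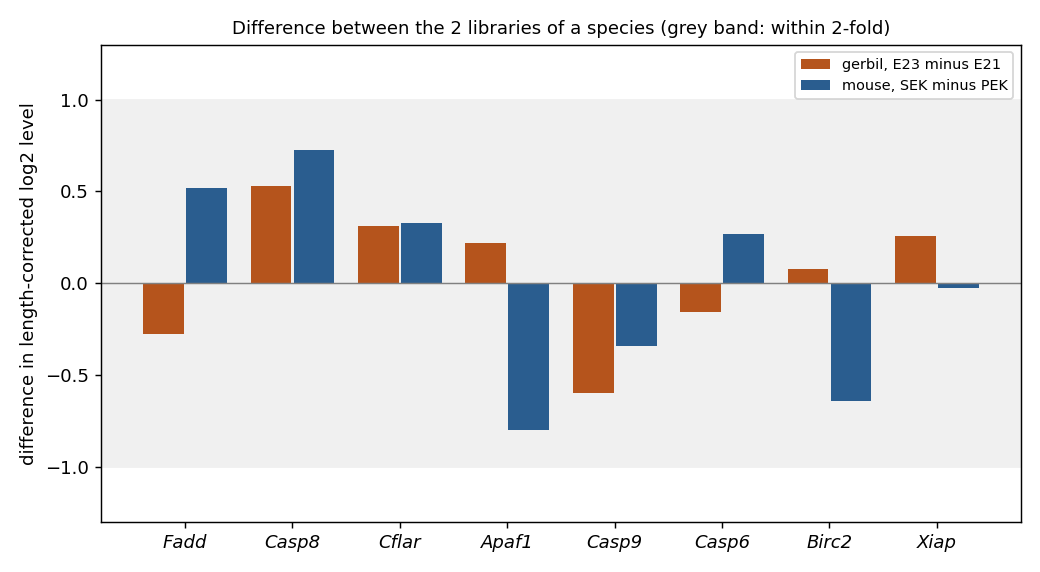
Difference in length-corrected log2 level between the libraries of a species, E23 minus E21 in gerbil (orange) and SEK minus PEK in mouse (blue), for each of the 8 genes, with a grey band within 2-fold. No bar leaves the band; the longest are Apaf1 (-0.80) and Casp8 (0.73) in mouse and Casp9 (-0.60) in gerbil.

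For the called genes, the matched genes with the most similar pattern were found by distance between mean-centred corrected log2 levels over the 4 libraries, taking the 6597 genes whose mean reached 10 in both species. The nearest to Fadd were Sdhd (distance 0.04), Fam207a (0.09) and Vdac3 (0.12). Among the nearest to Cflar were Proser2 (0.16) and Gar1 (0.18), and nearest to Birc2 came Kdm4c (0.06), Mex3c (0.07) and Eif4b (0.10). These distances rest on 4 libraries.

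The wider death pathway was examined through 6 lists of 60 genes in all, of which 42 were measured in both species. Of these, 2 were called higher in gerbil and 4 higher in mouse, 36 were not called, and the median difference was -0.10. All genes were called higher in gerbil in 13.4% of cases and higher in mouse in 14.6%, or 28% in either direction. The same shares are the background for the calls of each list below. Of the other caspases, 3 of 7 passed the filter on low levels and 0 were called. Casp2, an initiator caspase, was 133 ± 20.8 in gerbil, against 41.1 ± 9.996 in mouse (0.87 ± 0.14). Casp14, named outside the rule, a caspase of the differentiating epidermis, was listed at 0 in both gerbil libraries and was at 0.65 and 9.29 in PEK and SEK of mouse.

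The list of death receptors, related receptors and ligands had 1 call in each direction among 6 measured of 10, with a median of 0.55. The TNF receptor gene Tnfrsf1a was at 26.5 and 27.7 in gerbil, against 99.1 and 77.1 in PEK and SEK of mouse (-1.57 ± 0.23), a call that ended with GC content also removed, where 13.9% of all genes were called higher in mouse. Ltbr, the lymphotoxin beta receptor gene, was at 60.2 and 59.3 in gerbil, against 7.53 and 24.8 in PEK and SEK of mouse (2.16 ± 0.76), a call that ended without the length correction (1.40). Tnfrsf21, which encodes death receptor 6, was not called (0.66 ± 0.13), nor was the ligand gene Tnf (0.43 ± 1.48). Fas, the receptor best known for binding FADD, was at 2.41 and 9.60 in E21 and E23 of gerbil, against 1.74 in both mouse libraries (1.60 ± 0.84, not called), and is named outside the rule.

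Of 13 other adaptors and signalling kinases, 1 was called higher in gerbil and 1 in mouse (median -0.35). Pea15a, whose product carries the death effector domain also found in FADD, was 128 ± 6.83 in gerbil, against 35.7 ± 4.84 in mouse (1.61 ± 0.13, and not called without the length correction at 1.19). Traf1 was at 0.98 and 0.25 in gerbil, against 8.87 and 1.57 in PEK and SEK of mouse (-2.69 ± 0.87). Its values in both gerbil libraries and SEK are near the 1 added before log2. On levels, the nearest libraries (0.98 and 1.57) were less than 2-fold apart. Dap3 (-1.28 ± 0.38) and Faim (-0.10 ± 0.13) were not called. Among 4 measured mitochondrial factors, Endog, which encodes a nuclease, was at 4.52 and 4.59 in gerbil, against 24.9 and 43.7 in PEK and SEK of mouse, and was called higher in mouse (-1.51 ± 0.25). Diablo, which encodes an antagonist of IAP proteins, was 112 ± 16.0 in gerbil, against 178 ± 34.6 in mouse (-1.48 ± 0.40) and was not called, nor was Aifm1 (-0.09 ± 0.26). The median of the 4 was -1.495.

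Among 5 measured other inhibitors and their regulators, Birc5 was the 1 called gene, at 170 and 130 in E21 and E23 of gerbil, against 302 and 722 in PEK and SEK of mouse (-2.37 ± 0.77). Birc5 encodes survivin, an IAP family member that also acts in mitosis, and its direction was opposite to that of Birc2. Otub1 (-0.21 ± 0.07) and Hspbp1 (-0.93 ± 0.33) were not called, and the list's median was -0.21. None of 11 measured caspase substrates was called in either direction, and their median was -0.05. The most abundant of them were Vim (1.28 ± 0.47) and Parp1 (0.72 ± 0.21).

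**Figure D5:**
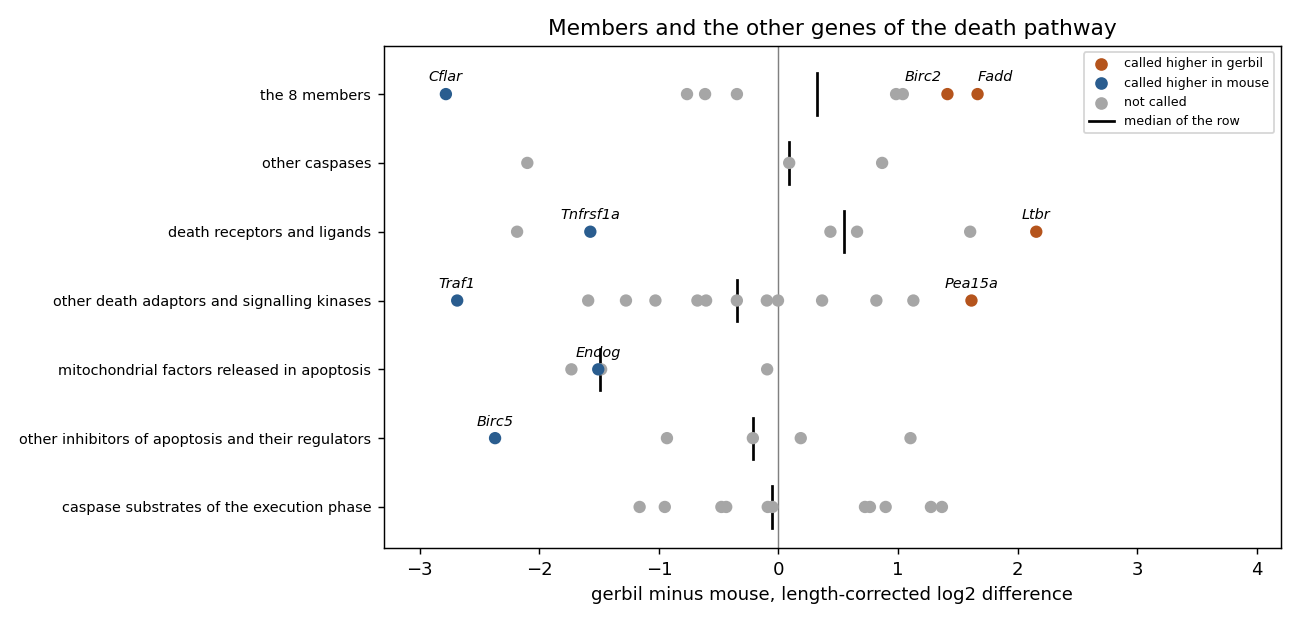
Gerbil minus mouse corrected log2 difference of the 8 genes (top row) and of the measured genes of each pathway list, with orange for genes called higher in gerbil, blue for higher in mouse, grey for not called and a black bar at each row's median. Called genes are scattered over the rows, with 2 to the right and 4 to the left outside the top row.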

How the data were processed

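Gerbil values were deposited by the authors as TPM per gene, and mouse values as FPKM per assembled locus, per the file headers. RSEM 1.3.1, STAR 2.7.1a and cutadapt 2.8, and the builds mm10 and GRCm38, are listed without roles, per the submitters' processing notes; no source used here names the gerbil build. A further 4 columns of per-sample values were not used. Columns show the species but no sample number.

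RNA was extracted with TRIzol from the fixed sections and sequenced after SMARTER library preparation, per the labels' protocols. Symbols occurring once in each table were matched ignoring case. Libraries were rescaled to 1000000, genes were kept that averaged 1 or more and had an exon-union length in GENCODE M21, and the running median along length in 40 bins was subtracted per library, after log2(level + 1). Of the mouse loci with an annotated ID, 99.9% overlapped their gene in that annotation. Differences have standard errors from 2 libraries per species, and calls use no test. Calculations used Python 3.11.15, numpy 2.4.6 and pandas 2.3.3, and were tested on simulated data. Named genes were all 8 members, called genes of each list and its 2 most abundant uncalled ones; a few genes that these rules name are not reported here. The members and lists were chosen with earlier results of these data known. Alternatives changed the pseudocount, filter, correction, scaling, fold and libraries.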

Additional observations from a re-analysis of the deposited data

How the results depend on the processing

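The count of the 8 genes called higher in gerbil was 2, and it was 1 with 20 bins along transcript length, with GC also removed and with median ratio scaling, where the Birc2 call ended, and 4 with neither centring nor length correction, where Casp9 and Xiap were added. It was 3 with no filter on low values, no length correction or a 1.5-fold call, each adding Xiap. Of all genes, 12.1% were called higher in gerbil with no filter and 18.4% with no length correction. With neither centring nor length correction 29.7% were, and with a 1.5-fold call 2145 of 10158 were. The count called higher in mouse was 1, and 2 with no length correction, where Casp6 was added and 19.4% of all genes were called so. It stayed 1 with neither centring nor length correction, but there Casp6 was called and Cflar was not. Leaving out 1 library gave 2 to 3 higher in gerbil (Xiap added without E21, Casp9 without E23) and 1 to 2 higher in mouse (Apaf1 added without SEK). Over all genes, 1359 higher in gerbil became 3019 with neither centring nor length correction and 2145 with a 1.5-fold call, 1487 higher in mouse became 2262 with a 1.5-fold call, and leaving out 1 library gave 1667 to 1941 and 1864 to 2043. Over the alternatives run, the difference ranged from 1.41 to 2.66 for Fadd, from -3.15 to -0.82 for Cflar and from 1.04 to 2.24 for Birc2. No called gene of the 8 changed sign. For the uncalled genes it ranged from -2.13 to -0.49 for Casp6, from 0.81 to 2.04 for Casp9 and from 0.40 to 2.91 for Xiap, and took both signs for Casp8 (-0.72 to 0.11) and Apaf1 (-1.40 to 1.28). Beyond fewer samples and the steps named, the cause of these shifts was not tested. With GC also removed, 0 genes of the list of death receptors, related receptors and ligands were called higher in mouse. No paired analysis was possible because the columns carry no sample number. Counting intervals planned for gerbil reads and a planned repeat on gerbil RPKM were not run, and depth limits were not assessed.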

Other observations

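Some gerbil genes of this pathway have further loci that carry a description but no symbol and so entered no comparison. A gene described as Birc6-like was at 28.1 and 28.6 TPM in gerbil E21 and E23, beside 26.2 and 24.7 TPM for the row named Birc6, a giant member of the IAP family. A caspase-14-like gene was at 0.36 and 0.09 TPM in E21 and E23, while the row named Casp14 was listed at 0 in both.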
